A study of Rattus norvegicus with 9 samples.

Results

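The genes described here are the 7 genes of the INK4 and CIP/KIP families of inhibitors of cyclin-dependent kinases (CDKs), together with Mdm2 and Rb1, which sit on the pathways those inhibitors act in. They are the INK4 genes Cdkn2a, Cdkn2b, Cdkn2c and Cdkn2d, the CIP/KIP genes Cdkn1a, Cdkn1b and Cdkn1c, and the pair Mdm2 and Rb1. They were listed by name, with no threshold on their values, though with earlier results of these data known, and they are 9 of the 17602 genes in the deposited table. All 9 were above 0 TPM in every library and passed the filter on low values.

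The libraries came from the knees of wild-type male Lewis rats aged 10 to 12 weeks, with 3 libraries in each of 3 groups. Intact synovium, the tissue lining the joint, was taken from around the medial meniscus of knees that had no surgery. Sham synovium was taken from the same place 1 week after the joint capsule had been opened and closed. The pMx tissue was the tissue regrowing 1 week after partial medial meniscectomy (pMx), in which the meniscotibial ligament was cut and the anterior part of the medial meniscus was taken out, and the synovium around it was removed at harvest. The pMx and sham groups therefore differ both in the surgery and in the tissue sampled, and these cannot be told apart. The titles of the libraries call them biological replicates, and the paper states that pMx was done on both knees. The sources used here do not say whether the 3 libraries of a group are separate animals, so the p-values measure the spread between these samples.

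INK4 proteins bind CDK4 and CDK6 and keep them from pairing with D-type cyclins. CIP/KIP proteins bind complexes of cyclins with CDKs and chiefly restrain CDK2. When CDKs are active they phosphorylate the retinoblastoma protein, the product of Rb1, which then releases E2F transcription factors to switch on genes of DNA synthesis. Cdkn2a also encodes ARF, which holds back MDM2, the ubiquitin ligase that marks p53 for destruction. Cdkn1a and Mdm2 are both textbook targets of p53.

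Values are TPM, a measure of transcript abundance, which are scaled for transcript length and sum to the same total in each library. They keep no read numbers, so sequencing depth is unknown here, and the precision given is the spread between the 3 libraries of a group. Fold changes are differences of group means of log2(TPM + 1), with their standard error (SE), from 1 limma fit to all 9 libraries. A gene rose or fell if its p-value, Benjamini-Hochberg adjusted over all 16512 genes tested, was below 0.05, and it was a differentially expressed gene (DEG) if its log2 fold change also exceeded 1 in size. The 3 comparisons share libraries and are not independent of each other. Between 15644 and 16125 genes were above 0 TPM in a library. Prg4, which encodes the lubricin of the synovial lining, was present in all groups, at 2646 ± 478 TPM in intact, 1315 ± 118 TPM in sham and 1453 ± 335 TPM in pMx libraries (SD, n = 3). One intact library stood apart: the summed level of 7 skeletal muscle genes was 36339 TPM in intact replicate 3, against 51.4 and 163 TPM in the other intact libraries, and its mean correlation with the others of its group was 0.957, against 0.974 and 0.977 for theirs.

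Between pMx tissue and sham synovium, 6 of the 9 genes passed the test: Cdkn2a, Cdkn2b, Cdkn1a and Cdkn1c rose, and Cdkn1b and Rb1 fell. Among all genes tested 17.7% rose and 18.9% fell in that comparison. Cdkn2a and Cdkn2b were also DEGs, a mark that 8.21% of all genes reached. Between sham and intact synovium 1 of the 9 passed, Cdkn1c, which rose and was a DEG, where 6.73% of all genes rose, 5.97% fell and 1.96% were DEGs. Between pMx tissue and intact synovium 8 of the 9 passed. The 6 that rose were Cdkn2a, Cdkn2b, Cdkn2c, Cdkn2d, Cdkn1a and Cdkn1c, against 23.4% of all genes, and the 2 that fell were Cdkn1b and Rb1, against 27.1%. Cdkn2a, Cdkn2b and Cdkn1c were DEGs there, against 14.3% of all genes. The median log2 fold change of the 9 genes was 0.31 in pMx against sham, 0.12 in sham against intact and 0.44 in pMx against intact, where the medians of all genes tested were -0.01, -0.02 and -0.03.

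**Figure D1:**
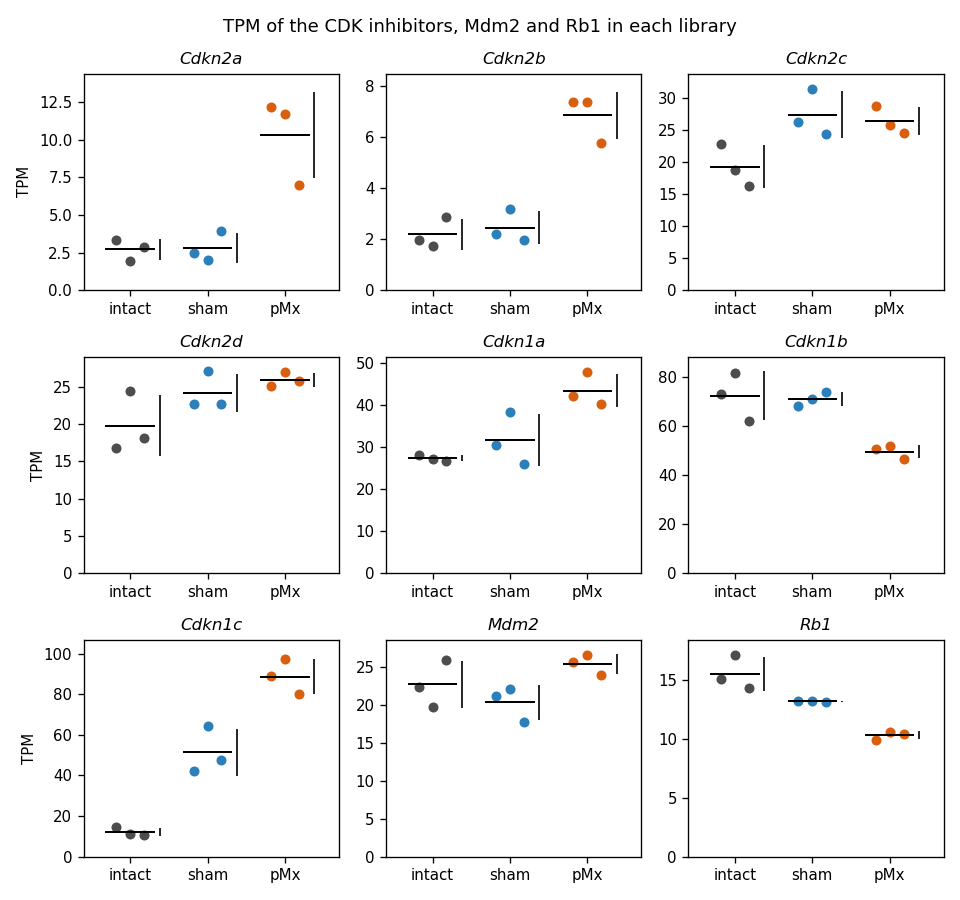
TPM of each of the 9 genes in each library (points), with the group mean as a horizontal line and 1 SD either side of it as a vertical line (n = 3), 1 panel per gene with its own axis starting at 0. The 3 pMx libraries lie above the 6 others for Cdkn2a, Cdkn2b, Cdkn1a and Cdkn1c and below them for Cdkn1b and Rb1.

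Cdkn2a and Cdkn2b lie near each other on rat chromosome 5, with 1 other protein-coding gene annotated between them in RefSeq, and they were the genes of this set with the largest rise from sham synovium to pMx tissue. The first encodes p16 and, from another start, ARF; the second encodes p15. The 250 bases before the annotated start of each are shown because the pair rose together. They are from RefSeq on the assembly GRCr8, which is not the mRatBN7.2 build of the deposited values, and are given 5′ to 3′ on the minus strand at chr5:109107957-109108206 for Cdkn2a and chr5:109134856-109135105 for Cdkn2b. Capitals mark the GC box (GGGCGG, or CCGCCC where it lies on the other strand), a binding motif of Sp1-like factors, and the cAMP response element (TGACGTCA).
Cdkn2a: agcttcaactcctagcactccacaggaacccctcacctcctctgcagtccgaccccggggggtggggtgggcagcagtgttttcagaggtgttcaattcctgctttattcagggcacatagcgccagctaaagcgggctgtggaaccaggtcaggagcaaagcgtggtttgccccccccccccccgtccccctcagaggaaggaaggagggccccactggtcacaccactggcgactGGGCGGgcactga
Cdkn2b: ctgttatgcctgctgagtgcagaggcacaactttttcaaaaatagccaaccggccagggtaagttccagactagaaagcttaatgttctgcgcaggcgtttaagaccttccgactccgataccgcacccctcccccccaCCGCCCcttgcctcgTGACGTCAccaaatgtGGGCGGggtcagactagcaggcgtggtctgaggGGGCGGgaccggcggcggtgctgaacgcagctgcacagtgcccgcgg
The starts used for these windows lie 26899 bases apart. The start of the Cdkn2a window lies 6492 bases inside the outermost annotated base of the gene, and which of its transcripts, p16 or ARF, begins there was not determined here. The stretch before Cdkn2a held 1 GC box, at bases -13 to -8 from the start. The stretch before Cdkn2b held 3, at -111 to -106, -80 to -75 and -47 to -42, and a cAMP response element at -96 to -89. On either strand, 33.1% of 33469 rat promoter windows of 300 bases (250 before the start and 50 after it) held a GC box and 1.83% held a cAMP response element. The matches are descriptions of letters and not sites of binding.

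Cdkn2a mRNA measured 3.36, 1.96 and 2.84 TPM in the intact libraries, 2.44, 2.03 and 3.94 TPM in the sham libraries and 12.15, 11.72 and 7.01 TPM in the pMx libraries. Every pMx library was above every library of the other groups, whose ranges overlapped, and the pMx libraries differed among themselves, with replicate 3 the lowest. The group means were 2.72 ± 0.708, 2.80 ± 1.01 and 10.3 ± 2.85 TPM (SD, n = 3 each). Cdkn2a rose from sham to pMx by 1.57 on the log2 scale (SE 0.26, limma adjusted p = 0.00173), a 3.67-fold difference of mean TPM. The difference of sham from intact was 0.02 (95% interval -0.56 to 0.60, limma adjusted p = 0.974). From intact to pMx it rose by 1.59 (SE 0.26, limma adjusted p = 9.59e-04). Leaving out any 1 library kept the pMx against sham log2 fold change between 1.42 and 1.80 and its adjusted p below 0.05. The value is for the whole gene and does not separate p16 transcripts from ARF transcripts.

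Cdkn2b measured 1.95, 1.74 and 2.87 TPM in intact, 2.21, 3.17 and 1.97 TPM in sham and 7.37, 7.37 and 5.77 TPM in pMx libraries. As for Cdkn2a, the pMx libraries stood above all others and pMx replicate 3 was the lowest of them. Its log2 fold change from sham to pMx was 1.19 (SE 0.18, limma adjusted p = 0.00114), with group means of 2.45 ± 0.635 and 6.84 ± 0.924 TPM (SD, n = 3). Against intact synovium (2.19 ± 0.601 TPM), the sham mean differed by 0.12 on the log2 scale (95% interval -0.29 to 0.52, limma adjusted p = 0.723). Cdkn2b rose from intact to pMx by 1.31 (SE 0.18, limma adjusted p = 3.78e-04). The pMx against sham log2 fold change ran from 1.09 to 1.34 when 1 library was left out. With a pseudocount of 0.1 in place of 1, it was 1.46 for Cdkn2b and 1.85 for Cdkn2a. Cdkn2a stood at the 29.2 percentile of the genes tested in sham and the 49.0 percentile in pMx tissue, and Cdkn2b at the 27.8 and the 41.4 percentile.

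The other INK4 genes, Cdkn2c (p18) and Cdkn2d (p19), did not pass the test between pMx tissue and sham synovium. Cdkn2c measured 22.83, 18.66 and 16.22 TPM in intact, 26.29, 31.38 and 24.27 TPM in sham and 28.71, 25.79 and 24.56 TPM in pMx libraries. The sham and pMx ranges overlapped and both lay above the intact range. The log2 fold change was -0.04 from sham to pMx (95% interval -0.36 to 0.27, limma adjusted p = 0.835) and 0.49 from intact to sham (limma adjusted p = 0.0501). From intact to pMx it rose by 0.44 (SE 0.14, limma adjusted p = 0.0239). That call was lost without any of intact replicate 2, intact replicate 3, pMx replicate 1 or pMx replicate 2.

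Cdkn2d measured 16.78, 24.44 and 18.09 TPM in intact, 22.69, 27.05 and 22.62 TPM in sham and 25.08, 26.91 and 25.8 TPM in pMx libraries. The pMx libraries were within the sham range, and the intact range overlapped that of sham. The log2 fold change from sham to pMx was 0.10 (95% interval -0.20 to 0.41, limma adjusted p = 0.593). Cdkn2d rose from intact to pMx by 0.39 (SE 0.13, limma adjusted p = 0.0374), a call kept in 2 of the 9 fits that left out 1 library.

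Cdkn1c, which encodes p57, a CIP/KIP inhibitor of imprinted expression, changed most across the 3 groups and was the 1 gene of the set called in every comparison. It measured 14.5, 11.32 and 10.51 TPM in intact, 42.07, 64.27 and 47.66 TPM in sham and 88.98, 97.22 and 80.05 TPM in pMx libraries. The 3 groups did not overlap, and sham lay between intact and pMx. The means were 12.1 ± 2.11, 51.3 ± 11.5 and 88.8 ± 8.59 TPM (SD, n = 3). Cdkn1c rose from intact to sham by 1.99 on the log2 scale (SE 0.17, limma adjusted p = 0.00129), a 4.24-fold difference of mean TPM. It rose again from sham to pMx by 0.80 (SE 0.17, limma adjusted p = 0.00627), which is 1.73-fold. Over the whole span from intact to pMx the rise was 2.78 (SE 0.17, limma adjusted p = 5.78e-06), or 7.33-fold. Without 1 library at a time the first rise ran from 1.82 to 2.12 and the second from 0.67 to 0.97, and both passed each time. Its position among the genes tested moved from the 51.0 percentile in intact to 83.4 in sham and 90.4 in pMx tissue. No promoter window for Cdkn1c was in the table used.

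Cdkn1b, which encodes p27, moved the other way. It measured 73.08, 81.78 and 61.98 TPM in intact, 68.32, 70.91 and 73.75 TPM in sham and 50.44, 51.77 and 46.52 TPM in pMx libraries. All pMx libraries were below all others, while the sham libraries lay within the intact range. The gene fell from sham to pMx by 0.51 on the log2 scale (SE 0.10, limma adjusted p = 0.00373), from 71.0 ± 2.72 to 49.6 ± 2.73 TPM (SD, n = 3). The intact mean was 72.3 ± 9.92 TPM, and the sham mean differed from it by -0.02 on the log2 scale (limma adjusted p = 0.929). Cdkn1b fell from intact to pMx by 0.53 (SE 0.10, limma adjusted p = 0.00196).

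Cdkn1a encodes p21, the inhibitor that p53 induces. It measured 28.26, 27.3 and 26.68 TPM in intact, 30.59, 38.33 and 26.02 TPM in sham and 42.24, 47.94 and 40.27 TPM in pMx libraries. The pMx libraries were above all others, by a margin smaller than for Cdkn2a and Cdkn2b, and the sham and intact ranges overlapped. Cdkn1a rose from sham to pMx by 0.46 on the log2 scale (SE 0.13, limma adjusted p = 0.0226), with means of 31.6 ± 6.22 and 43.5 ± 3.98 TPM (SD, n = 3). The call was lost without any of sham replicate 1 (adjusted p = 0.0661), sham replicate 3 (0.0656), pMx replicate 1 (0.0541) or pMx replicate 2 (0.0817), and the fold change over the fits that left out 1 library ran from 0.33 to 0.60. From the intact mean of 27.4 ± 0.796 TPM to pMx it rose by 0.64 (SE 0.13, limma adjusted p = 0.00317).

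**Figure D2:**
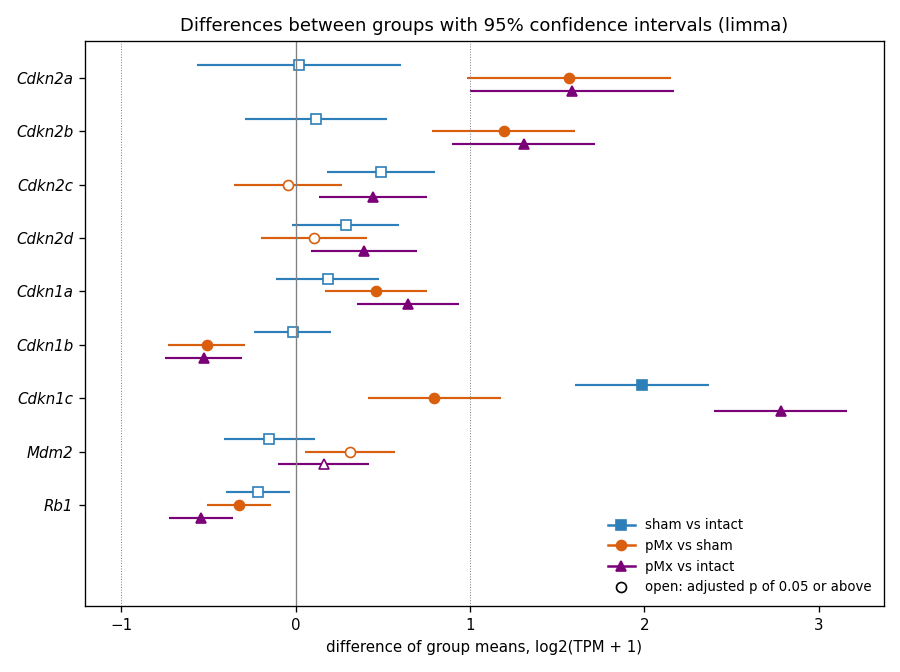
Difference of group means on the log2(TPM + 1) scale with its 95% interval for each of the 9 genes, in sham against intact, pMx against sham and pMx against intact, with open symbols where the adjusted p was 0.05 or above. Cdkn1c lies above 0 in all 3 comparisons, Cdkn2a and Cdkn2b are near 0 in sham against intact and above 1 in both pMx comparisons, and Cdkn1b and Rb1 lie below 0 in both pMx comparisons.

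Mdm2 measured 22.36, 19.71 and 25.9 TPM in intact, 21.1, 22.01 and 17.73 TPM in sham and 25.55, 26.58 and 23.87 TPM in pMx libraries. The pMx libraries were all above the sham libraries but overlapped the intact range. The log2 fold change from sham to pMx was 0.31 (95% interval 0.05 to 0.57), and its limma adjusted p of 0.0623 missed the threshold. It passed in a fit to the 6 sham and pMx libraries alone (adjusted p = 0.0310) and in fits without intact replicate 2 (0.0442) or intact replicate 3 (0.0267). The group means were 22.7 ± 3.11, 20.3 ± 2.25 and 25.3 ± 1.37 TPM in intact, sham and pMx (SD, n = 3). From intact to pMx the log2 fold change of Mdm2 was 0.16 (SE 0.11, limma adjusted p = 0.273), and from intact to sham it was -0.15 (adjusted p = 0.435).

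Rb1 measured 15.13, 17.21 and 14.38 TPM in intact, 13.25, 13.27 and 13.17 TPM in sham and 9.97, 10.63 and 10.48 TPM in pMx libraries. The 3 groups did not overlap, with intact the highest and pMx the lowest. Rb1 fell from sham to pMx by 0.33 on the log2 scale (SE 0.08, limma adjusted p = 0.0135), a call that was lost without pMx replicate 1 (adjusted p = 0.0530). From intact to pMx it fell by 0.54 (SE 0.08, limma adjusted p = 6.18e-04), from 15.6 ± 1.47 to 10.4 ± 0.346 TPM (SD, n = 3). The sham mean of 13.2 ± 0.0529 TPM differed from the intact mean by -0.22 (95% interval -0.40 to -0.03, limma adjusted p = 0.117). The promoter window of Rb1 held 6 GC boxes and the E2F motif TTTNNCGC, which 4.92% of windows held on either strand and no other gene of the set with a window did.

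TPM are scaled for length, and the levels of the 9 genes are set side by side here as a description. Other differences in how well each gene is measured are not removed by that scaling and were not tested. In intact synovium Cdkn1b was the highest and Cdkn1a the next, each above the library ranges of the genes that followed. Mdm2, Cdkn2d, Cdkn2c, Rb1 and Cdkn1c came next, each overlapping its neighbor in the order, and Cdkn2a and Cdkn2b were the lowest and overlapped each other. In sham synovium Cdkn1c stood second, below every Cdkn1b library and above every Cdkn1a library. In pMx tissue Cdkn1c was first, above every Cdkn1b library, and the ranges of Cdkn1b and Cdkn1a overlapped. Cdkn2a in pMx tissue overlapped Rb1 just above it and Cdkn2b just below it.

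The summed level of the 7 CDK inhibitor genes was 156 ± 14.7 TPM in intact, 211 ± 23.1 TPM in sham and 251 ± 19.6 TPM in pMx libraries (SD, n = 3). Within that sum Cdkn1b made up 46.3 ± 2.31% in intact, 33.9 ± 3.61% in sham and 19.8 ± 0.482% in pMx libraries. Cdkn1c made up 7.78 ± 1.14%, 24.2 ± 2.76% and 35.3 ± 0.767%. The ratio of Cdkn1c to Cdkn1b thus went from 0.169 ± 0.030 in intact through 0.723 ± 0.160 in sham to 1.79 ± 0.081 in pMx libraries. Cdkn2a made up 1.77 ± 0.516%, 1.36 ± 0.563% and 4.06 ± 0.898%, so the INK4 gene with the largest fold change remained a small part of the sum. The 4 INK4 genes together held 28.2 ± 0.454%, 26.9 ± 0.599% and 27.6 ± 1.03%. Their ratio to the summed level of their binding partners Cdk4 and Cdk6 ran from 0.236 to 0.249 in intact, from 0.245 to 0.261 in sham and from 0.197 to 0.237 in pMx libraries. These sums and shares are descriptions with no test.

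**Figure D3:**
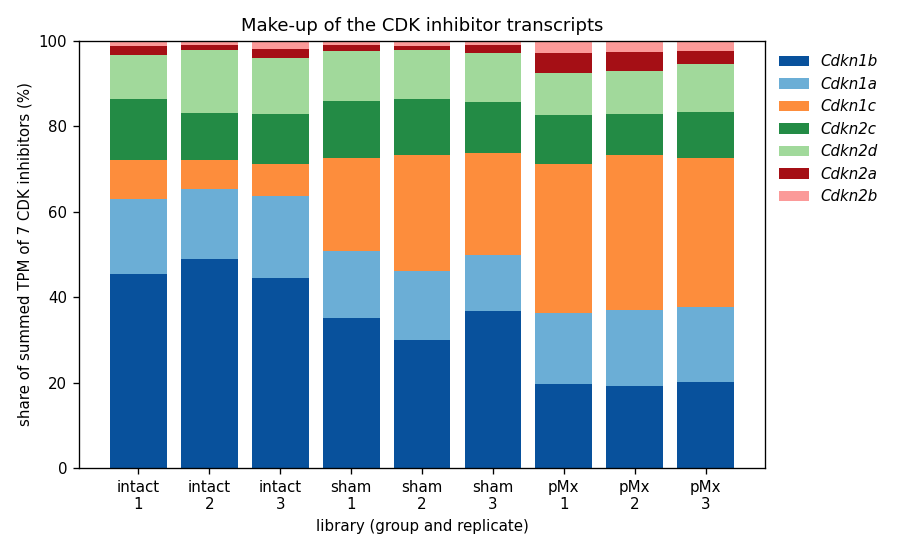
Share of the summed TPM of the 7 CDK inhibitor genes held by each gene, in percent, for each of the 9 libraries. The mean share of Cdkn1b goes from 46.3% in intact to 19.8% in pMx libraries while that of Cdkn1c goes from 7.78% to 35.3%.

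Lists of genes around the inhibitors were counted in the same fit. These counts, and those of cell type markers further on, are to be read beside the shares of all genes tested. From sham to pMx 17.7% of all genes rose and 18.9% fell, and from intact to sham 6.73% rose and 5.97% fell. Of the 5 genes for D-type cyclins and their kinases, Cdk4, Cdk6 and Ccnd3 rose from sham to pMx and Ccnd2 fell. Cdk4 had means of 216 ± 20.9 TPM in sham and 306 ± 6.95 TPM in pMx (log2 fold change 0.51, limma adjusted p = 0.0012), and Ccnd2 93.6 ± 6.08 and 48.3 ± 6.67 TPM (-0.95, adjusted p = 0.00185). Ccnd1 had a log2 fold change of -0.08 (adjusted p = 0.605). The count that rose was 2 without any of sham replicate 1, sham replicate 3, pMx replicate 1 or pMx replicate 2. All 7 of the later cyclins and CDKs, which act in DNA synthesis and mitosis, rose from sham to pMx, with a median log2 fold change of 1.55. Among them Cdk1, the mitotic kinase, went from 19.9 ± 4.18 to 71.0 ± 3.39 TPM (log2 fold change 1.80, limma adjusted p = 6.31e-05). The same 7 also rose from intact to sham, but 3 were called when only the 6 libraries of that comparison were fitted or when sham replicate 1 or sham replicate 2 was left out.

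Of 12 genes of the Rb family, the E2F factors and their partners, 6 rose and 2 fell from sham to pMx, and 1 fell without pMx replicate 1. E2f8 and E2f7, which repress E2F targets, had the largest log2 fold changes at 1.28 and 1.21 (limma adjusted p = 0.00103 and 2.59e-04). The relatives of Rb1 differed in direction. Rbl1, which encodes p107, rose by 0.83 (SE 0.12, limma adjusted p = 0.00104), while Rbl2, which encodes p130, fell by 0.33 (SE 0.08, limma adjusted p = 0.0145). Of 16 E2F target genes 14 rose and none fell in limma from sham to pMx, with a median log2 fold change of 1.07, and at an unadjusted p below 0.05 all 16 were higher. Rrm2, a subunit of ribonucleotide reductase, was at 9.28 ± 4.31 TPM in sham and 36.5 ± 3.71 TPM in pMx (log2 fold change 1.96), and the proliferation marker Mki67 was at 6.63 ± 2.37 and 23.4 ± 0.961 TPM (1.72). Tyms, the thymidylate synthase, had a log2 fold change of 0.41 and did not pass (limma adjusted p = 0.0709). From intact to sham 11 of the 16 rose, and 5 did with only the 6 libraries of that comparison or without sham replicate 1 or sham replicate 2. The CDK inhibitors Cdkn2a, Cdkn2b, Cdkn1a and Cdkn1c and the 14 E2F target genes that rose were therefore higher than in sham in the same 3 libraries. Cdkn1b and Rb1 were lower in those libraries. Values for whole tissue do not show whether the same cells carried both kinds of transcript.

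Of 18 p53 target genes other than Cdkn1a and Mdm2, 3 rose and 3 fell from sham to pMx, and the median log2 fold change was -0.09, against -0.01 over all genes tested. Of all genes 17.7% rose and 18.9% fell, and 3 of 18 is near that background in both directions. Zmat3 (0.38), the apoptosis gene Bax (0.29) and Aen (0.25) rose. Perp (-0.98), Rrm2b (-0.82) and the stress gene Sesn1 (-0.48) fell. Perp was near 0, at 1.09 ± 0.404 TPM in sham and 0.0467 ± 0.0404 TPM in pMx libraries (SD, n = 3), so the size of its fold change depends on the pseudocount. The count that rose was 1 without any of sham replicate 1, sham replicate 3, pMx replicate 1 or pMx replicate 2. The other 12 did not pass, among them Gadd45a with a log2 fold change of -0.20 (limma adjusted p = 0.483). At an unadjusted p below 0.05, 3 of the 18 were higher in pMx than in sham and 5 were lower. From intact to pMx, 2 of the 18 rose and 7 fell, against 23.4% and 27.1% of all genes. Of the partners of Mdm2, none of Mdm4, Ppm1d and Usp7 passed in limma between pMx and sham, with log2 fold changes of 0.00, -0.21 and 0.06 (adjusted p = 0.986, 0.174 and 0.503), and 0 of the 3 had an unadjusted p below 0.05.

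Of 6 genes listed around the turnover of p27 protein, 3 rose and 1 fell from sham to pMx. Skp2, the ubiquitin ligase subunit that recognizes p27, was at 1.98 ± 0.266 TPM in sham and 4.79 ± 0.345 TPM in pMx (log2 fold change 0.96, limma adjusted p = 1.67e-04), so it rose where Cdkn1b mRNA fell. Cul1 (0.40) also rose, as did Fbxo5 (0.87), which was listed here though its product is not a subunit of the Skp2 ligase. Skp1 fell by 0.23 (limma adjusted p = 0.0192). That call was lost under median-of-ratios rescaling and without any of sham replicate 1, sham replicate 3, pMx replicate 1 or pMx replicate 2.

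Of 12 regulators of the INK4 locus, 1 rose and 1 fell from sham to pMx, where 17.7% of all genes rose and 18.9% fell. The count that fell was 2 with the 6 libraries of the comparison alone or without intact replicate 3, and the count that rose was 2 under quantile normalization. Cbx7, a Polycomb subunit known to repress Cdkn2a, measured 27.6 ± 2.86 TPM in intact, 16.4 ± 1.26 TPM in sham and 2.74 ± 0.295 TPM in pMx libraries (SD, n = 3). It fell from intact to sham by 0.71 and from sham to pMx by 2.22 on the log2 scale (limma adjusted p = 0.00681 and 1.09e-05). Ezh2, the Polycomb methyltransferase, which also represses the locus, rose from 7.61 ± 0.98 to 16.4 ± 1.16 TPM (log2 fold change 1.02, limma adjusted p = 5.49e-04). Bmi1, a further Polycomb subunit, had a log2 fold change of -0.15 (adjusted p = 0.154). Cbx7 and Ezh2 thus moved in opposite directions. Of 9 other transcriptional regulators of CDK inhibitors, Zbtb17 rose (0.31) and Cebpa (-1.41), Klf4 (-0.99) and Foxo1 (-0.53), which induces Cdkn1b, fell from sham to pMx. Leaving out any of sham replicate 1, sham replicate 3, pMx replicate 1 or pMx replicate 2 lost the call of Zbtb17. The count that fell was 5 with the 6 libraries of the comparison alone or without intact replicate 3.

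Of 10 genes linked to cellular senescence, a lasting arrest of the cell cycle in which p16 and p21 often rise, 6 rose and 1 fell from sham to pMx. Glb1, the lysosomal beta-galactosidase, rose by 0.63 on the log2 scale (SE 0.15, limma adjusted p = 0.0107). Lmnb1 and Hmgb2, whose products are known to be lost in senescent cells, rose as well, by 1.27 and 0.88 (limma adjusted p = 1.95e-04 and 4.98e-04). Igfbp5 went down from 796 ± 43.9 to 194 ± 10.6 TPM (log2 fold change -2.03, limma adjusted p = 1.09e-05). Il6, a cytokine of the senescence-associated secretion, had a log2 fold change of 0.38 (adjusted p = 0.166). The list therefore held genes that moved both ways relative to what its name describes.

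**Figure D4:**
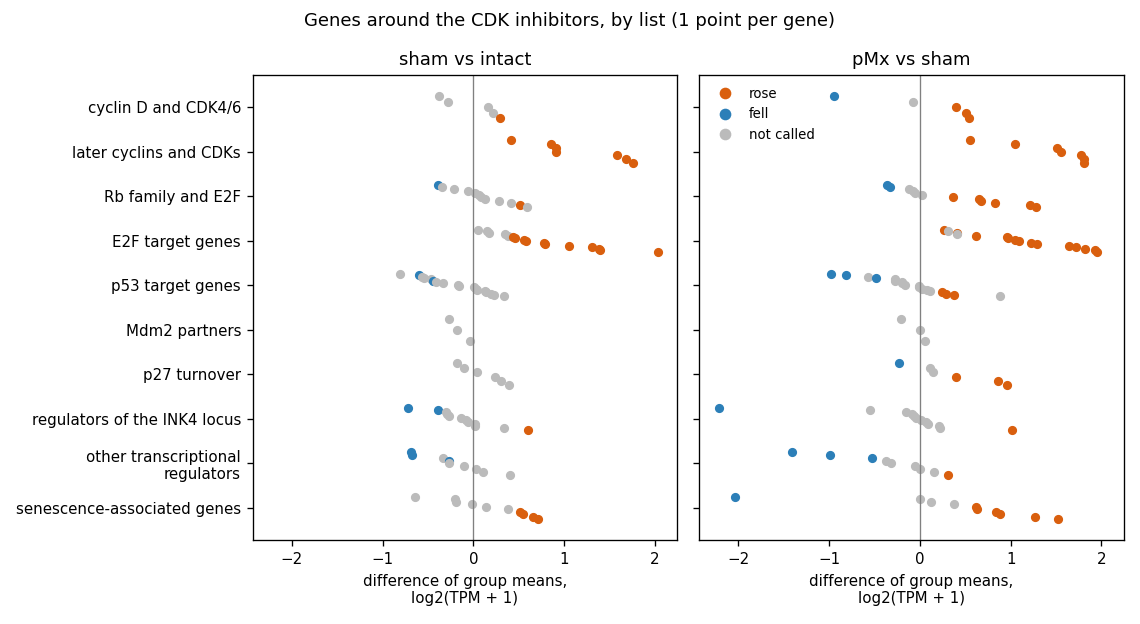
Difference of group means on the log2(TPM + 1) scale for each gene of the 10 lists, in sham against intact (left) and pMx against sham (right), with genes that rose, fell or were not called in different colors. All 7 later cyclins and CDKs and 14 of 16 E2F target genes rose from sham to pMx, while the p53 target genes lay on both sides of 0.

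The groups also differed in markers of cell types. In bulk tissue, fewer cells of a type and less RNA per cell cannot be told apart. From sham to pMx all 5 adipocyte markers and all 4 Schwann cell markers fell, and their summed levels went from 4278 to 4610 TPM in sham libraries to 302 to 475 TPM in pMx libraries, and from 108 to 153 TPM to 7.15 to 9.08 TPM. Of the 6 fibroblast markers Thy1, Lum and Col1a2 rose, Dcn fell, and Pdgfra and Prg4 were not called. Their sums were 11928 to 13191 TPM in sham and 25013 to 26740 TPM in pMx libraries. Most of that sum was from matrix genes: mean Col1a2 went from 4174 to 14118 TPM, Lum from 2180 to 7012 TPM and Dcn from 4683 to 2441 TPM. The mean of Pdgfra was 84.6 TPM in sham and 79.8 TPM in pMx, so the sum is not a measure of fibroblast number. Of 6 macrophage markers Cd68 rose and Cd163 fell, with sums of 1117 to 1131 TPM and 834 to 1117 TPM. The call of Cd68 was lost without any of intact replicate 2, sham replicate 1, sham replicate 3 or a pMx library. Of 6 endothelial markers 2 fell and 0 rose in limma, with sums of 622 to 660 TPM and 524 to 661 TPM. At an unadjusted p below 0.05, 2 were lower and 2 higher, and 2 rose under median-of-ratios rescaling, with the 6 libraries alone or without intact replicate 3. Lymphocyte markers summed to 14.6 to 18.6 TPM and 9.11 to 11.8 TPM, and 2 of 6 fell, or 1 without any of sham replicate 2, sham replicate 3, pMx replicate 2 or pMx replicate 3. The part of these cell types in the differences of the 9 genes was not tested.

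None of the 7 skeletal muscle markers passed the limma test in any comparison, and 0 of 7 did so at an unadjusted p below 0.05. The libraries differed too much for that to show equal levels: the 95% interval of Acta1 in pMx against sham ran from -6.34 to 5.66. The sums of the 7 markers were 189 to 2369 TPM in sham and 73.8 to 2441 TPM in pMx libraries. In intact replicate 3, the library with the high muscle sum, Cdkn2c, Cdkn1a, Cdkn1b, Cdkn1c and Rb1 were the lowest and Cdkn2b and Mdm2 the highest of the intact libraries. Without it, 7 of the 9 genes passed in pMx against sham, 2 in sham against intact and 6 in pMx against intact. The added calls were Mdm2 in the first and Rb1 in the second (adjusted p = 0.0483), and the lost ones were Cdkn2c and Cdkn2d in the third.

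The genes whose levels followed those of the set most closely over the 9 libraries were found among 13201 genes with a mean of at least 1 TPM. The correlations are of log2(TPM + 1), the 9 libraries fall into 3 groups, and the differences between groups are part of each correlation. For Cdkn2a they were Inha (r = 0.972), Cdc37 (0.969) and LOC498265 (0.965), and for Cdkn2b Pde7a (0.989), Mast2 (0.988) and Rad23b (0.988). For Cdkn1c they were Mmp16 (0.992), Lilrb4 (0.990) and Clec12a (0.989). The genes nearest to Cdkn1b were Ptch1 (0.992), Adra1d (0.989) and Hr (0.988), and those nearest to Rb1 were Crim1 (0.995), Trpv1 (0.993) and Lamb2 (0.991). For Cdkn1a they were Lipt2 (0.983), Npm3 (0.977) and Zc3h15 (0.976). Those of Cdkn2c were Slc6a12 (0.982), Matk (0.978) and Sla (0.978), and those of Cdkn2d were Hexd (0.939), Vps51 (0.938) and Prdx1l1 (0.937). No 2 of these genes of the set shared a nearest gene. With only 3 of 13201 genes kept for each, this cannot show that their patterns differ.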

How the data were processed

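RNA of 9 libraries (3 intact, 3 sham and 3 pMx) was selected as mRNA on oligo-dT beads, and BGI did the sequencing. The submitters' processing notes name HISAT2 2.0.4 and the build mRatBN7.2. The counting tool, annotation and filters are not given in the sources used here. The authors deposited TPM values for 17602 genes, which are scaled to a fixed total, so a large rise of some genes lowers the others, and which keep no depth. Libraries were grouped by their titles, and all 9 value columns were used. A RefSeq table of GRCr8, used for names, held 17419 of the identifiers (99.0%).

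From the deposited TPM, log2(TPM + 1) was taken for genes with a TPM above 0 in 3 or more libraries (16512 genes). It was fitted with limma 3.58.1 in R 4.3.3, by eBayes with trend, with 1 mean per group over all 9 libraries and Benjamini-Hochberg adjustment in each comparison. The pseudocount of 1 understates the fold change of low genes. The calculation was run on simulated data in which 200 of 16512 genes were changed by 2 on the log2 scale, up or down. It recovered 96% of them in pMx against sham, 98% in sham against intact and 93.5% in pMx against intact. It also called 7, 10 and 12 unchanged genes. Smaller differences, such as most of those of the 9 genes, were not simulated. The 9 genes and the gene lists were chosen with earlier results of these data known. Every one of the 9 is named, list genes are named by the largest changes past the test in each direction and by those that did not pass, and the 3 most correlated genes are named for each of the 9 called in at least 1 comparison. Alternatives were other pseudocounts, filters, rescalings, variance models and thresholds, fits to 6 libraries, the replicate number as a block and leaving out each library. Some genes that the naming rule covers are counted in their lists but not reported here by name. RNA quality records, immunostaining and PCR were not analysed here. The paper's supplement lists RNA integrity, a measure of how whole the RNA was, as lowest in intact and highest in pMx libraries, without overlap between groups. RNA integrity and group therefore cannot be told apart, and its part in the differences was not tested.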

Additional observations from a re-analysis of the deposited data

How the results depend on the processing

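Of 567 values of the 9 genes under other settings, 515 kept their direction and their side of the threshold, 30 kept their direction and lost the call, 13 gained one and 9 changed sign. The rises of Cdkn2a, Cdkn2b and Cdkn1c from sham to pMx held in all 9 fits that left out 1 library. With the DEG thresholds, 2 of the 9 genes were called in pMx against sham in place of 6, and 3 in pMx against intact in place of 8. In sham against intact 2 were called in place of 1, with Cdkn2c added, when the pseudocount was 0.01 or 0.1, when genes had to average 1 TPM or more, and under median-of-ratios rescaling, quantile normalization, robust eBayes and the replicate block. Leaving out 1 library gave 4 to 7 calls in pMx against sham, 1 to 2 in sham against intact and 6 to 8 in pMx against intact.

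The values that changed sign were all of genes that had not passed. In sham against intact, Cdkn1b was at 0.0024 under median-of-ratios rescaling and Cdkn2a at -0.025 under quantile normalization. Leaving out 1 library took Cdkn2c in pMx against sham from -0.12 to 0.056, and in sham against intact Cdkn2a from -0.19 to 0.17, Cdkn2b from -0.029 to 0.26 and Cdkn1b from -0.12 to 0.075. The cause was not tested. With the replicate number as a block 6, 2 and 8 of the 9 genes were called in pMx against sham, sham against intact and pMx against intact. Same-numbered libraries had correlated deviations of 0.03, 0.37 and 0.48 in the first and of 0.00 or below in the others, so the numbers were not taken to pair the libraries. Depth is unknown and sets no limit that can be given here.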
